A study of Rattus norvegicus with 19 samples.

Results

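The genes described here are 6 transcripts used as markers of microglia and of antigen presentation: Aif1, Csf1r, Cx3cr1, C1qa, Itgam and Cd74. They are 6 of the 32883 Ensembl gene IDs in the count table, chosen by ID: ENSRNOG00000000853 for Aif1, ENSRNOG00000018414 for Csf1r, ENSRNOG00000018509 for Cx3cr1, ENSRNOG00000012807 for C1qa, ENSRNOG00000019728 for Itgam and ENSRNOG00000018735 for Cd74. The symbols come with the choice of IDs. All 6 exist as symbols in the RefSeq rat annotation, but that annotation pairs 0 of its genes with an Ensembl ID, so the pairing itself was not checked here and no ID was dropped. All 6 passed the filter on low counts, which left 15372 IDs.

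The libraries came from whole tissue lysates labelled brain, 1 from each of 19 female Wistar rats, and the series text gives the amygdala as the region. Each rat was the daughter of a father from 1 of 4 groups: 4 daughters of fathers on a high-fat diet (HFD), 5 of fathers with early life stress (ELS), 5 of fathers with both (ELS-HFD) and 5 of control fathers. The series text describes the stress as separation from the mother, and speaks of male rats where every sample label says female. All daughters, controls included, ate chow and were put on an elevated plus maze at postnatal day 57 ± 1, so an exposure here is always the father's. The labels give no father or litter, and some of the 19 rats may be sisters; the p-values take them as separate animals.

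Microglia are the resident macrophages of the brain. They depend on signals from neurons and other cells for survival and for their resting state, and they supply most of the brain's C1q. Csf1r is the tyrosine kinase receptor for the growth factors Csf1 and Il34 that keeps microglia alive, and Cx3cr1 is the receptor for fractalkine, a ligand displayed by neurons. Aif1 encodes Iba1, the calcium-binding protein stained to show microglia, and Itgam encodes the integrin chain CD11b, which takes part in binding complement-coated material. C1qa encodes a chain of C1q, which opens the classical complement pathway. Cd74 is the invariant chain that occupies the groove of MHC class II molecules until they reach the endosome. It is known as low in resting microglia and high in the macrophages and dendritic cells at the borders of the brain, which include the meninges and choroid plexus.

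The stretches before the start of 3 of these genes are printed so that the short elements before Cd74, which works with class II molecules, can be set beside those before 2 genes of microglia (C1qa and Itgam). They come from RefSeq windows on GRCr8, a later build than that of the counts, and hold only the bases of the window that lie before the annotated gene. The windows of Csf1r and Cx3cr1 lie mostly or wholly inside the gene and are not printed. The searched letters are in capitals, on either strand: GAGGAA, a core bound by PU.1, a regulator of macrophage genes; CCAAT, the core of the Y box; and CTAGNAACA, a form of the X box core, whose letters were chosen after the Cd74 window had been read. X and Y boxes side by side are the known hallmark of class II promoters.
Cd74, chr18:56526956-56527070, plus strand, 115 bases: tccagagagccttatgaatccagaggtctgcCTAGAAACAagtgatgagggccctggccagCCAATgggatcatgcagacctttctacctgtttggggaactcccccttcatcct
Itgam, chr1:192089342-192089495, plus strand, 154 bases: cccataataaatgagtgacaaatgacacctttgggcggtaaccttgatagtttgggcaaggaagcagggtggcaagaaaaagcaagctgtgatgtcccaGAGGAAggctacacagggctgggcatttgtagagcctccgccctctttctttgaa
C1qa, chr5:154419934-154420183, minus strand, 250 bases: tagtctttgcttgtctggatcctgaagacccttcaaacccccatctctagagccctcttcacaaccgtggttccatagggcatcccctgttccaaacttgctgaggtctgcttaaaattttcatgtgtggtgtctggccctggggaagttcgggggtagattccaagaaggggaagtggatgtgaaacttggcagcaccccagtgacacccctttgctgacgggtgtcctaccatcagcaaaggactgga
The Cd74 window holds the X box letters from base 32 and the Y box letters from base 62, and the 2 motifs do not overlap. As the X box letters were chosen after this window was read, their match was fixed in advance. The share of other windows with them is therefore no test of it. Of 33469 RefSeq windows cut to their first 115 bases, 0.329% hold the X box letters and 16.5% the Y box letters. Those bases run up to the annotated gene for Cd74 but need not do so for other genes. Over the first 250 bases the shares are 0.932% and 34%. Itgam holds GAGGAA at base 100. Of windows cut to their first 154 bases 15% hold these letters, and over the first 250 bases 23.3% do. The 250 bases of C1qa hold none of the searched letters, which says nothing about the factors that bind there. A match is a description of the letters and not a measured binding site.

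Library totals ran from 7034837 to 20266594 counts. The first principal component of all tested IDs set HFD replicate 1 (113.69) and ELS-HFD replicates 2 and 3 (49.23 and 47.82) apart from the other libraries, which scored -29.02 to 10.59. The share of counts in the top 10 IDs was 25.8% in HFD replicate 1, against 8.997% to 16.74% in the others. The scaling factor of the trimmed mean method (TMM) was 0.772 in HFD replicate 1 and 0.984 to 1.07 elsewhere. No pair of libraries within a group agreed within sampling noise. Each group's values below include these 3 libraries.

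Levels are in CPM, each gene's share of the library's total count on a fixed scale, which are not divided by gene length, so they are compared between libraries and not between genes. A lower level in these bulk samples cannot tell fewer microglia from less RNA per microglial cell.

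**Figure D1:**
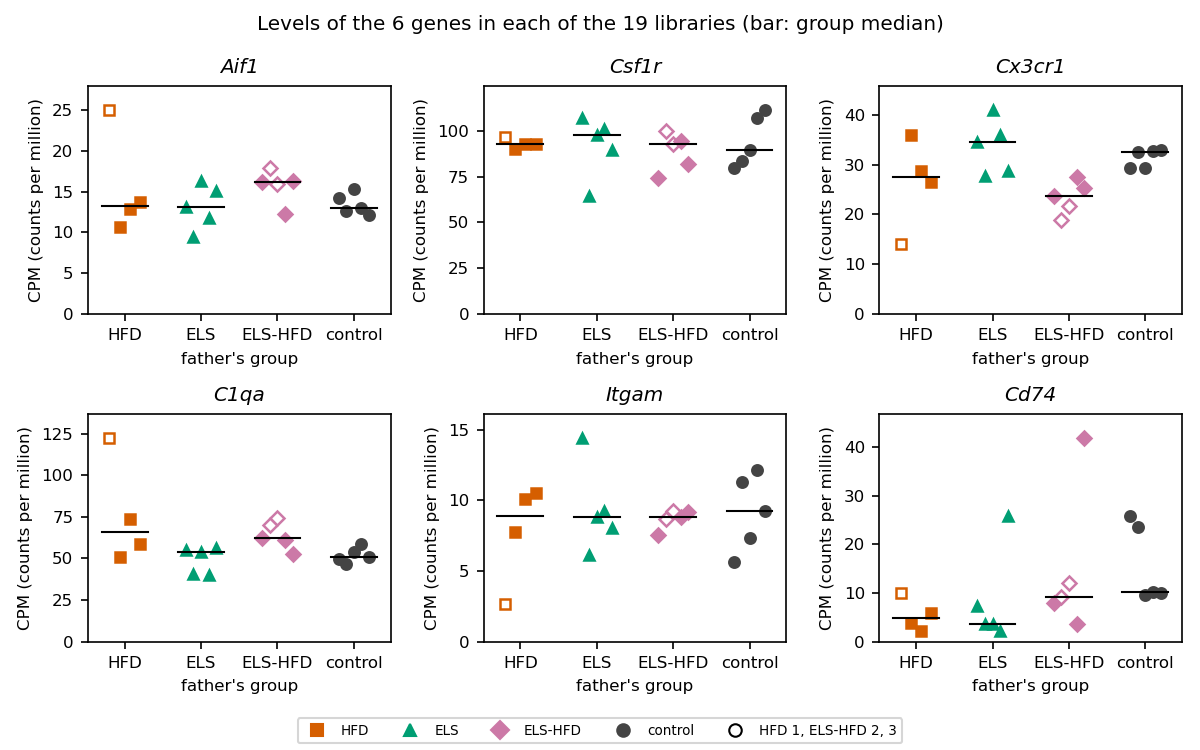
CPM of the 6 genes in each library, by the father's group; points are libraries in replicate order, horizontal bars are group medians, and the 3 open symbols mark HFD replicate 1 with replicates 2 and 3 of ELS-HFD. The ELS-HFD libraries lie below the ELS and control libraries for Cx3cr1, HFD replicate 1 is extreme for Aif1, Cx3cr1, C1qa and Itgam, and Cd74 is at least at 23.6 CPM in 1 ELS, 1 ELS-HFD and 2 control libraries.

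Of the receptors, Cx3cr1 was low in the ELS-HFD libraries and in HFD replicate 1. It was at 14.0, 35.9, 28.7 and 26.5 CPM in HFD replicates 1 to 4. It was at 34.5, 27.7, 40.9, 35.9 and 28.8 CPM in ELS replicates 1 to 5, and at 23.7, 18.9, 21.7, 27.5 and 25.2 CPM in ELS-HFD replicates 1 to 5. The 5 control libraries lay close together, at 29.4, 32.4, 29.3, 32.8 and 32.9 CPM. In CPM every ELS-HFD library was below every ELS and every control library, and HFD libraries lay on both sides. The highest ELS-HFD library (27.5 CPM) and the lowest ELS library (27.7 CPM) were nearly level. On the TMM-scaled log2 scale ELS-HFD replicate 4 (4.793) was above ELS replicates 2 (4.788) and 5 (4.762). In order, the mean was 23.4 ± 3.27 CPM in ELS-HFD (SD, n = 5), 26.3 ± 9.12 CPM in HFD (SD, n = 4), 31.4 ± 1.86 CPM in control (SD, n = 5) and 33.6 ± 5.41 CPM in ELS (SD, n = 5); ELS-HFD and HFD, HFD and control, and control and ELS each differed by less than the larger SD.

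Csf1r was the steadiest of the 6, with a coefficient of variation of 12.8% over all libraries. Its mean was 93.0 ± 2.73 CPM in HFD (SD, n = 4), 91.9 ± 16.7 CPM in ELS, 88.6 ± 10.5 CPM in ELS-HFD and 94.1 ± 14.2 CPM in control libraries (SD, n = 5 each). The groups overlapped throughout, from 64.2 CPM in ELS replicate 2 to 111 CPM in control replicate 5, and no pair of group means differed by more than the larger SD of the pair.

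Aif1 was at 24.96, 10.7, 12.8 and 13.7 CPM in HFD replicates 1 to 4. It was at 13.1, 9.47, 16.3, 11.7 and 15.05 CPM in ELS replicates 1 to 5, at 16.1, 17.9, 15.9, 12.3 and 16.3 CPM in ELS-HFD replicates 1 to 5, and at 14.2, 12.6, 15.3, 12.97 and 12.1 CPM in control replicates 1 to 5. HFD replicate 1 stood above every other library, 4 of the 5 ELS-HFD libraries stood above every control library, and the remaining ranges overlapped. On the TMM-scaled log2 scale ELS-HFD replicate 5 (3.951) was below control replicate 3 (3.969). Group means were 15.5 ± 6.40 CPM in HFD (SD, n = 4), 13.1 ± 2.69 CPM in ELS, 15.7 ± 2.07 CPM in ELS-HFD and 13.5 ± 1.30 CPM in control libraries (SD, n = 5 each).

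Itgam had few counts, between 38 and 203 per library. It ranged from 2.70 to 10.5 CPM in HFD, from 6.16 to 14.4 CPM in ELS, from 7.53 to 9.21 CPM in ELS-HFD and from 5.62 to 12.1 CPM in control libraries. The lowest value was again in HFD replicate 1, and the groups overlapped.

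C1qa was at 122, 51.1, 73.6 and 58.7 CPM in HFD replicates 1 to 4. It was at 55.2, 40.6, 54.0, 39.8 and 56.2 CPM in ELS replicates 1 to 5, at 62.0, 70.1, 74.0, 61.2 and 52.6 CPM in ELS-HFD replicates 1 to 5, and at 49.8, 46.4, 54.1, 58.5 and 51.1 CPM in control replicates 1 to 5. The ELS-HFD libraries other than replicate 5 were above every ELS and every control library, and 3 of the 4 HFD libraries were above every control library, the lowest of them by little (58.7 against 58.5 CPM). The mean was 76.4 ± 32.0 CPM in HFD (SD, n = 4), 64.0 ± 8.34 CPM in ELS-HFD, 52.0 ± 4.54 CPM in control and 49.2 ± 8.23 CPM in ELS libraries (SD, n = 5 each). HFD and ELS-HFD, and control and ELS, are the neighbours in this order that differed by less than the larger SD.

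Cd74 varied more than any other member, by 20.1 times between the lowest and the highest library. It was at 10.1, 3.73, 2.08 and 5.94 CPM in HFD replicates 1 to 4, and at 7.24, 3.55, 3.71, 2.13 and 25.9 CPM in ELS replicates 1 to 5. It was at 7.99, 9.10, 12.1, 3.68 and 41.9 CPM in ELS-HFD replicates 1 to 5, and at 25.9, 23.6, 9.57, 10.3 and 10.01 CPM in control replicates 1 to 5. ELS replicate 5 and ELS-HFD replicate 5 stood far above their groups. HFD replicate 1 lay within the control range. The other 3 HFD libraries, 4 of the 5 ELS libraries and ELS-HFD replicates 1, 2 and 4 lay below that range. Means were 5.46 ± 3.46 CPM in HFD (SD, n = 4), 8.51 ± 9.91 CPM in ELS, 14.9 ± 15.4 CPM in ELS-HFD and 15.9 ± 8.16 CPM in control libraries (SD, n = 5 each), and neighbours in that order differed by less than the larger SD.

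**Figure D2:**
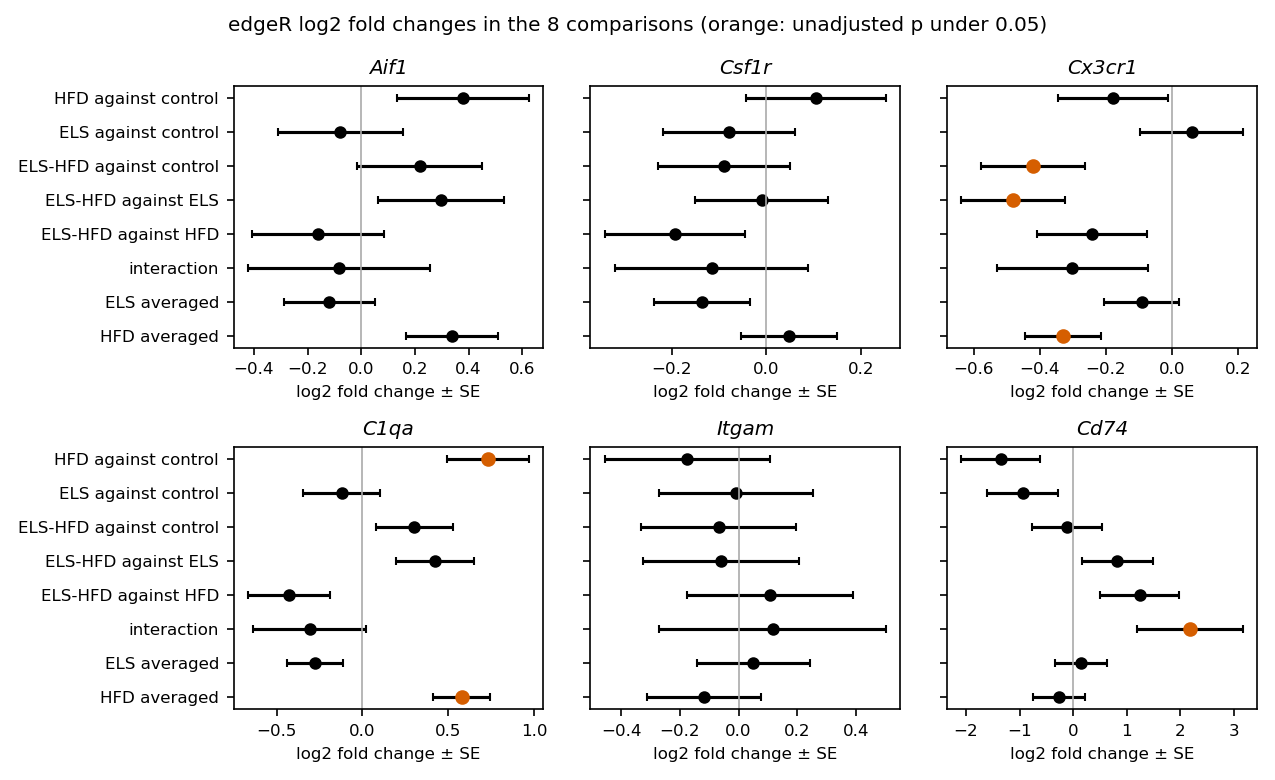
edgeR log2 fold changes (points) with their standard errors (bars) for the 6 genes in the 8 comparisons; the x axis differs between genes and the averaged effects and the interaction are named in short. Orange marks an unadjusted p under 0.05, met by C1qa in 2 comparisons, Cx3cr1 in 3 and Cd74 in 1.

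The father's diet was examined in 3 ways, of which the average uses the libraries of the other 2. In HFD against control, C1qa had a log2 fold change of 0.73 ± 0.24 (SE), with an edgeR p of 0.00632 and an adjusted p of 0.616. Without HFD replicate 1 the value was 0.25 (adjusted p = 1.00), so that library carried most of the difference. Cd74 had a log2 fold change of -1.35 ± 0.73 (SE, edgeR adjusted p = 0.618), and of -2.02 (adjusted p = 1.00) without HFD replicate 1. The other 4 members were between -0.18 and 0.38, and those of Aif1, Csf1r and Itgam changed sign without that library. Of the 6 genes, 3 were higher and 3 lower in HFD, with a median of -0.04, against 0.0061 over all tested IDs. None of the 6 passed an adjusted p of 0.05, and edgeR called 0 IDs in all (0%), limma-voom 0 and DESeq2 5. At an unadjusted p under 0.05, 1 of the 6 genes (C1qa) stood against 1198 IDs (7.79%). The groups overlapped for all 6 genes, where 414 IDs (2.69%) had no overlap. C1qa was higher in HFD under every alternative run and Cd74 was lower.

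In ELS-HFD against ELS, Cx3cr1 was lower and C1qa higher in the ELS-HFD libraries. Cx3cr1 had a log2 fold change of -0.48 ± 0.16 (SE), 0.717 of the ELS level, with an edgeR p of 0.00647 and an adjusted p of 0.212. C1qa stood at 0.42 ± 0.23 (SE, adjusted p = 0.285). Both passed when HFD replicate 1 was left out, although it belongs to neither group compared; without it the filter, scaling and dispersion are all estimated anew, and 15547 IDs were tested: Cx3cr1 at -0.46 with an adjusted p of 0.0232 and C1qa at 0.44 with an adjusted p of 0.0331. In that fit edgeR called 2405 IDs. Without ELS-HFD replicates 2 and 3 as well, Cx3cr1 was at -0.37 (adjusted p = 0.177), C1qa at 0.29 (adjusted p = 0.280), and 0 IDs were called. With all libraries edgeR called 0 IDs (0%), limma-voom 0 and DESeq2 146, and 1 of the 6 genes (Cx3cr1) was at an unadjusted p under 0.05 with 3039 IDs (19.8%). In column-sum CPM the groups did not overlap for 1 of the 6 genes, Cx3cr1, and for 1080 IDs in all (7.03%). With TMM scaling they did overlap for Cx3cr1, as ELS-HFD replicate 4 was above ELS replicates 2 and 5. Cd74 had a log2 fold change of 0.83 ± 0.66 (SE, adjusted p = 0.462), which was 1.84 without ELS replicate 5 and 0.01 without ELS-HFD replicate 5. Aif1 was at 0.30 ± 0.23 (SE), and Csf1r and Itgam were at -0.01 and -0.06. The direction of Cx3cr1 and of C1qa was the same under every alternative run.

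Averaged over the father's early life, daughters of fathers on the diet had a higher C1qa and a lower Cx3cr1 level, and neither passed edgeR's adjusted threshold. C1qa had a log2 fold change of 0.58 ± 0.16 (SE), an edgeR p of 0.00235 and an adjusted p of 0.147, and DESeq2 gave 0.59 with an adjusted p of 0.0434. Cx3cr1 was at -0.33 ± 0.11 (SE), with an edgeR p of 0.00957 and the same adjusted p of 0.147. Without HFD replicate 1 alone, C1qa was at 0.35 (adjusted p = 0.183). Without the 3 libraries that stand apart, C1qa was at 0.27 (adjusted p = 0.434) and Cx3cr1 at -0.20 (adjusted p = 0.497). Aif1 was at 0.34 ± 0.17 (SE, adjusted p = 0.223), but at 0.11 without HFD replicate 1 (adjusted p = 0.644) and at 0.054 without the 3 libraries (adjusted p = 0.893). Itgam was at -0.12 ± 0.19 (SE), Csf1r at 0.05 ± 0.10 (SE) and Cd74 at -0.26 ± 0.49 (SE), a value that ran from -0.67 without ELS-HFD replicate 5 to 0.24 without ELS replicate 5. The 2 genes of the 6 at an unadjusted p under 0.05 stand against 3739 IDs (24.3%), so that share is close to the background. edgeR called 0 IDs (0%), limma-voom 0 and DESeq2 329.

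The father's early life stress was examined within each diet and on average. In ELS against control, 5 of the 6 genes were between -0.12 and 0.06 on the log2 scale, and Cd74 was at -0.94 ± 0.66 (SE, edgeR adjusted p = 0.913), or -1.96 (adjusted p = 0.848) without ELS replicate 5. None of the 6 was at an unadjusted p under 0.05, a level that 668 IDs (4.35%) met, and none of the 6 had groups without overlap, as 507 IDs did (3.3%). There edgeR called 0 IDs (0%), limma-voom 0 and DESeq2 1. In ELS-HFD against HFD, Cd74 was at 1.24 ± 0.73 (SE, edgeR adjusted p = 1.00) and C1qa at -0.43 ± 0.24 (SE), a value that was 0.07 without HFD replicate 1. None of the 6 was at an unadjusted p under 0.05, against 519 IDs (3.38%), and none had groups without overlap, against 111 IDs (0.722%). Here too edgeR called 0 IDs (0%), limma-voom 0 and DESeq2 3. Without ELS-HFD replicate 5 the Cd74 value was 0.42, without HFD replicate 1 it was 1.92 and without the 3 libraries that stand apart 2.14. Cx3cr1 was at -0.24 ± 0.17 (SE), at -0.38 without HFD replicate 1 and at -0.074 without HFD replicate 2. Averaged over diets the 6 genes lay between -0.28 (C1qa) and 0.15 (Cd74), and C1qa was at -0.025 without HFD replicate 1 and at -0.10 without the 3 libraries. With all libraries none of the 6 was at an unadjusted p under 0.05, against 382 IDs (2.49%), and edgeR called 0 IDs (0%), limma-voom 0 and DESeq2 1.

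Daughters whose fathers had both exposures were also set against daughters of control fathers; the ELS-HFD libraries are those already compared with ELS. Cx3cr1 was again lower, at -0.42 ± 0.16 on the log2 scale (SE), with an edgeR p of 0.0147 and an adjusted p of 0.839. C1qa was at 0.30 ± 0.23 (SE), Aif1 at 0.22 ± 0.23 (SE), and Csf1r, Itgam and Cd74 were between -0.12 and -0.07. Without the 3 libraries that stand apart C1qa was at 0.17, Aif1 at 0.14, Csf1r at -0.18 and Cd74 at 0.11. The groups did not overlap for Cx3cr1 alone among the 6 genes, and for 182 IDs in all (1.18%). That gene was also the only member of 643 IDs (4.18%) at an unadjusted p under 0.05. Here edgeR called 0 IDs (0%), limma-voom 0 and DESeq2 0.

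The interaction asks whether the difference that goes with the father's diet depends on his early life. Cd74 had the largest interaction of the 6 genes, at 2.18 ± 0.99 on the log2 scale (SE), with an edgeR p of 0.0397 and an adjusted p of 0.969. It combines a lower level in HFD than in control (-1.35) with a higher level in ELS-HFD than in ELS (0.83). The value was 1.37 (adjusted p = 1.00) without ELS-HFD replicate 5 and 3.19 (adjusted p = 0.261) without ELS replicate 5. The other 5 genes were between -0.31 (C1qa) and 0.12 (Itgam), and without HFD replicate 1 C1qa was at 0.19. Cd74 is 1 of 788 IDs (5.13%) at an unadjusted p under 0.05, and edgeR called 0 IDs (0%), limma-voom 0 and DESeq2 5.

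The 6 genes did not vary as a block across the 19 libraries. Of their 15 pairs, 3 had a Pearson correlation past a Benjamini-Hochberg adjusted p of 0.05 on TMM-scaled log2 CPM. Aif1 and C1qa went together (Pearson's r = 0.86, permutation p = 0.00018, adjusted p = 0.0027; Spearman's rho = 0.68, permutation p = 0.00172, adjusted p = 0.0258). Both went against Cx3cr1, Aif1 at r = -0.65 (permutation p = 0.00206, adjusted p = 0.0103; rho = -0.61, permutation p = 0.00656, adjusted p = 0.0492) and C1qa at r = -0.65 (permutation p = 0.00201, adjusted p = 0.0103; rho = -0.53, permutation p = 0.0209, adjusted p = 0.105). HFD replicate 1 is at an end of each of these relations. Leaving out the 2 libraries farthest from the median of the first gene gave r = 0.51 for Aif1 with C1qa, -0.62 for Aif1 with Cx3cr1 and -0.39 for Cx3cr1 with C1qa. With the 3 libraries that stand apart left out, the same 3 values were 0.48, -0.23 and -0.22 (permutation, adjusted p = 0.291, 0.561 and 0.561), and 0 of the 15 pairs passed by r. As deviations from the group means the 3 values were 0.87, -0.61 and -0.60, and all passed by r, but without the 2 farthest libraries, HFD replicates 1 and 2, they were 0.60, -0.08 and -0.03, so both relations with Cx3cr1 rest on these libraries there. Without the 3 libraries that stand apart, Csf1r went with Itgam at r = 0.65 (permutation p = 0.00664, adjusted p = 0.0996; rho = 0.67, permutation p = 0.00578, adjusted p = 0.0433) and with Cx3cr1 at r = 0.59 (permutation p = 0.0172, adjusted p = 0.129; rho = 0.68, permutation p = 0.00501, adjusted p = 0.0433). Cd74 had no relation past the threshold with any of the 5 other genes.

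**Figure D3:**
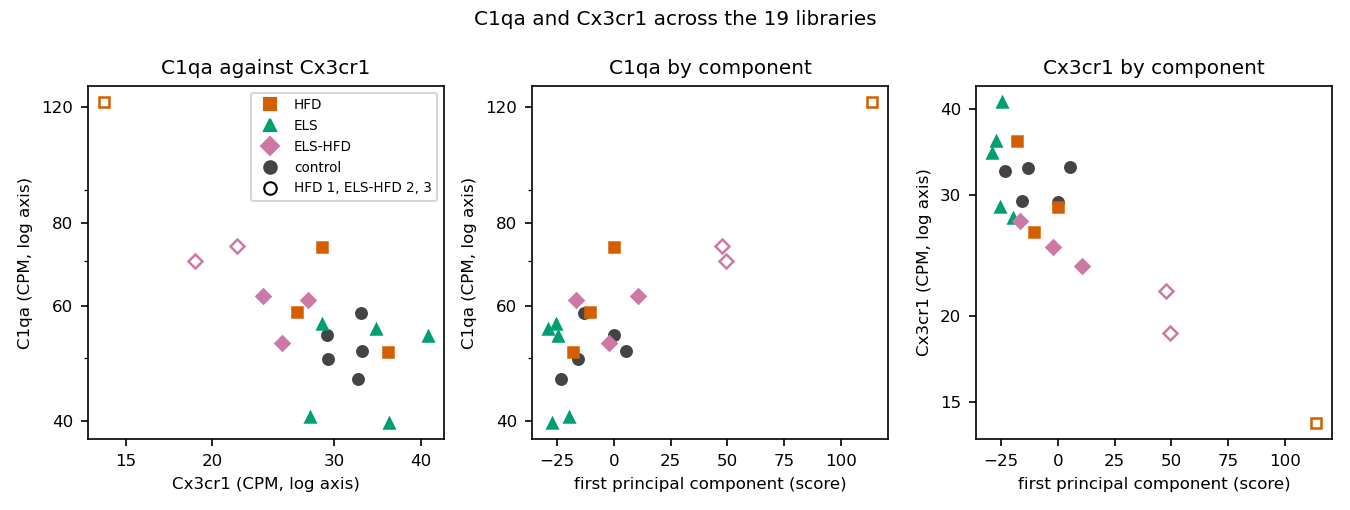
Left, C1qa against Cx3cr1 in CPM on log axes; middle and right, C1qa and Cx3cr1 in CPM on a log axis against the first principal component of all tested IDs; points are libraries, colored and shaped by the father's group, and the 3 open symbols mark HFD replicate 1 with replicates 2 and 3 of ELS-HFD. HFD replicate 1 has the highest C1qa (122 CPM), the lowest Cx3cr1 (14.0 CPM) and the highest component score (113.69).

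The ratio of C1qa to Cx3cr1 counts within a library does not depend on how libraries are scaled. It was chosen after the values were seen and is given as a description. The ratio ran from 1.42 to 8.76 in HFD libraries (median 2.39), from 1.11 to 1.95 in ELS libraries (median 1.47), from 2.09 to 3.71 in ELS-HFD libraries (median 2.62) and from 1.43 to 1.84 in control libraries (median 1.70). All 5 ELS-HFD libraries, replicates 1, 4 and 5 included, were above all ELS and control libraries, and the HFD libraries lay on both sides of the highest ELS and control libraries. How often ratios of other ID pairs separate these groups was not computed. Of single IDs in column-sum CPM, 7.03% had no overlap in ELS-HFD against ELS and 1.18% in ELS-HFD against control. A ratio of 2 IDs picked after their values were seen is another measure, so these shares do not say how rare its separation is.

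The first principal component moved with the same genes. Across the 19 libraries it went with C1qa at r = 0.88 (permutation p = 4e-05, adjusted p = 0.00036; rho = 0.68, permutation p = 0.00141, adjusted p = 0.0127), with Aif1 at r = 0.85 (permutation p = 9e-05, adjusted p = 0.00054; rho = 0.59, permutation p = 0.00902, adjusted p = 0.0406) and with Cx3cr1 at r = -0.80 (permutation p = 1e-05, the smallest the permutations can give, adjusted p = 0.00018; rho = -0.64, permutation p = 0.00408, adjusted p = 0.0245). Without the 2 farthest libraries, HFD replicate 1 and ELS-HFD replicate 2, these were 0.66, 0.50 and -0.62. Among the 16 libraries other than the 3 that stand apart they were 0.52, 0.41 and -0.47 (permutation, adjusted p = 0.209, 0.231 and 0.209 over 6 relations). The adjusted values of all libraries cover 18 relations chosen after the data were seen. The component itself was made from all tested IDs, these 6 among them, so these p-values are a description and not a test. How many of the other tested IDs follow the component as closely was not computed. The part of library composition in the group differences of C1qa and Cx3cr1 was not tested.

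Cd74 and Csf1r followed a different ID, ENSRNOG00000016275, singled out after its values were seen. No symbol is paired with this ID in the files. It separates the libraries into 10 with 0.694 to 7.24 CPM and 9 with 319 to 11280 CPM, so relations were computed within each. This split and the relations were also chosen after the values were seen, so their p-values are a description and not a test. How many other IDs follow this ID as closely within either set was not computed. The 9 are the 5 control libraries, ELS replicate 5 and ELS-HFD replicates 2, 3 and 5, and none is an HFD library. Within the 9, Cd74 went with the ID at r = 0.93 (exact permutation p = 0.000904, adjusted p = 0.00325 over 18 relations; rho = 0.78, exact permutation p = 0.0172, adjusted p = 0.062). Leaving out the 2 farthest libraries, control replicate 1 and ELS-HFD replicate 5, gave r = 0.84. Cd74 was level, at 9.10 to 12.1 CPM, in the libraries with 319 to 1111 CPM of the ID. It was at 23.6 to 41.9 CPM in those with 2409 CPM or more. Csf1r went the other way, at r = -0.93 (exact permutation p = 0.00032, adjusted p = 0.00144; rho = -0.92, exact permutation p = 0.00131, adjusted p = 0.0127), and at r = -0.90 without the same 2 libraries. Within the 10 libraries with little of the ID neither did: r was 0.11 for Cd74 (permutation p = 0.755, adjusted p = 0.846; rho = 0.04, permutation p = 0.917, adjusted p = 0.972) and 0.29 for Csf1r (permutation p = 0.428, adjusted p = 0.700; rho = 0.32, permutation p = 0.366, adjusted p = 0.631). Among the other 4 genes, none had an adjusted p under 0.05 with the ID in either set. The ID averaged 1.64 CPM in HFD libraries and 1889 CPM in control libraries, the pair of groups in which Cd74 was at 5.46 and 15.9 CPM, and its part in that difference was not tested.

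**Figure D4:**
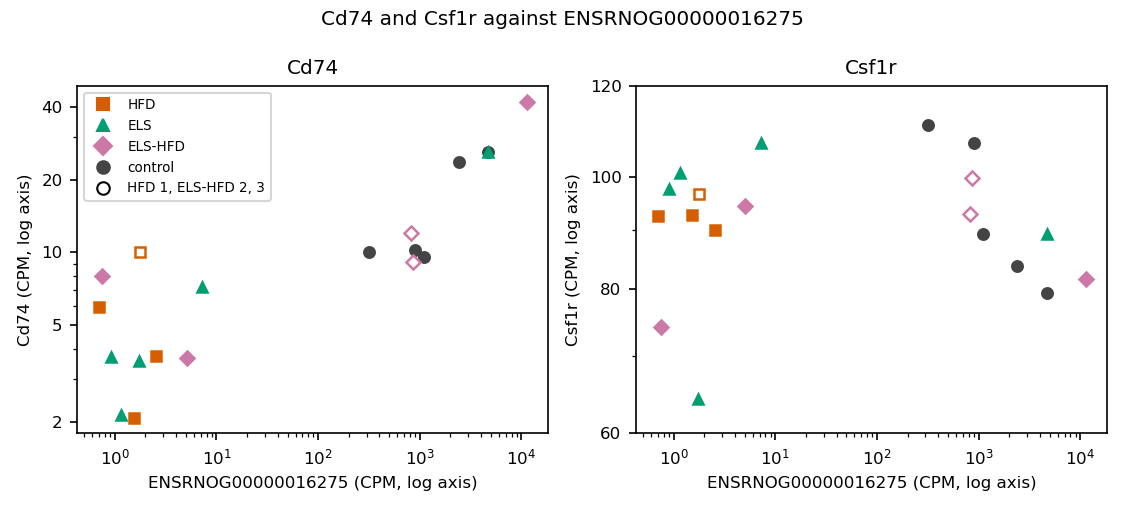
Cd74 (left) and Csf1r (right) against ENSRNOG00000016275, all in CPM on log axes; points are libraries, colored and shaped by the father's group, and the 3 open symbols mark HFD replicate 1 with replicates 2 and 3 of ELS-HFD. Among the 9 libraries with at least 319 CPM of the ID, Csf1r declines as the ID increases. Cd74 stays at 9.10 to 12.1 CPM up to 1111 CPM of the ID and is at 23.6 to 41.9 CPM from 2409 CPM up. The 10 libraries at the left show no such relation for either gene.

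Likeness to the members was measured as Pearson's r over the 19 libraries, among 14323 IDs with a mean of at least 1 CPM. The IDs most like Cd74 were ENSRNOG00000017560 (r = 0.93, 8.29 to 235 CPM) and ENSRNOG00000018358 (r = 0.92, 3.66 to 68.8 CPM), and ENSRNOG00000016275 ranked 78 (r = 0.83). The IDs most like the mean of the 5 standardized microglial genes were ENSRNOG00000013231 (r = 0.82) and ENSRNOG00000007679 (r = 0.80). That mean was close to Csf1r (r = 0.91) and hardly followed Cx3cr1 (r = 0.05) or Itgam (r = 0.22). These are descriptions over libraries that differ in composition, and no symbol is paired with these IDs here.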

How the data were processed

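Per the submitters' processing notes the reads were placed on Rnor_6.0 and DESeq2 was used. The authors deposited whole-number counts per Ensembl gene ID, not normalized; the sources used here do not give the aligner, annotation release, strand setting or handling of shared reads. Libraries were made from about 400 ng of RNA with enrichment of polyadenylated RNA, per the labels' protocols. Each of the 19 columns carries a number that 1 sample's description also carries, and 0 columns were left over.

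CPM are counts over column sums. IDs were tested by quasi-likelihood F test in edgeR (version 4.0.16, R 4.3.3) with TMM scaling, the default filter (15372 IDs of 32883) and the group as only term, over 19 libraries and 8 comparisons, with Benjamini-Hochberg adjustment over all IDs and a threshold of 0.05. The standard error is the log2 fold change over the square root of F. The calls and fold changes of edgeR were tested on simulated data for HFD against control, but the standard error was not. Correlations used TMM-scaled log2 CPM with a prior count of 2 and two-sided permutation (100000 resamples, exact for the 9 libraries). Alternatives were DESeq2 1.42.0, limma-voom (limma 3.58.1), other scalings and filters, the 2 groups alone, a replicate block, leaving out each library, and leaving out 3 together. The members and lists were chosen with earlier results of these data known. The rule for named genes gave the 6 members and the 2 IDs most like Cd74 and most like the other 5. Lists of other microglial, class II and cell type genes were not analysed here, because the reference pairs 0 Ensembl IDs with symbols; for the same reason the labelled tissue was not checked against its markers.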

Additional observations from a re-analysis of the deposited data

Results flagged for a closer look

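Csf1r in HFD replicate 1 lay far from the rest of its group on the TMM-scaled log2 scale, at 6.97 against 6.51 to 6.56 in the other 3 HFD libraries. As CPM of the column sum it was at 96.7, against 90.0 to 92.7 in the others, and the TMM factor of that library was 0.772. Of 24 sets of values (6 genes in 4 groups) this was the 1 that stood out, where chance gives about 1 in 20.

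Cd74 was flagged for its interaction, at 2.18 on the log2 scale in edgeR's fit over all IDs (adjusted p = 0.969). That value did not pass the threshold, so a difference between groups in the change that goes with the father's diet was not shown. The estimate moved with single libraries, to 1.37 without ELS-HFD replicate 5 and to 3.19 without ELS replicate 5.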

How the results depend on the processing

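DESeq2 called 5 IDs in HFD against control, 1 in ELS against control, 146 in ELS-HFD against ELS, 3 in ELS-HFD against HFD, 5 for the interaction, 1 for ELS averaged over diets and 329 for HFD averaged over early life, where edgeR called 0. The fit of 2 groups alone called 3 in HFD against control. Leaving out 1 library gave 0 to 2405 calls in ELS-HFD against ELS (2405 without HFD replicate 1), 0 to 12 for the interaction (12 without ELS replicate 5), 0 to 1 for ELS averaged and 0 to 2 for HFD averaged. The cause was not tested.

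Of 1326 values of the 48 member fold changes under alternatives, 1254 kept their direction and their side of the threshold. Another 3 newly passed (Cx3cr1 and C1qa in ELS-HFD against ELS without HFD replicate 1, and C1qa for HFD averaged with DESeq2). The other 69 changed sign, in 24 results, the largest of which was 0.43 in size in edgeR's fit over all libraries. Without the 3 libraries that stand apart these were, on the log2 scale, in HFD against control Aif1 -0.10, Csf1r -0.019 and Itgam 0.068, in ELS-HFD against control Cd74 0.11, in ELS-HFD against HFD Aif1 0.24 and Itgam -0.17, in the interaction Aif1 0.31, C1qa 0.036 and Itgam -0.17, in ELS averaged Aif1 0.082 and Itgam -0.089 and in HFD averaged Csf1r -0.062. With column sums in place of TMM these were, on the log2 scale, in HFD against control Csf1r -0.017, in ELS against control Itgam 0.035, in ELS-HFD against HFD Aif1 0.013, in the interaction Aif1 0.049 and in HFD averaged Csf1r -0.035. With limma-voom these were, on the log2 scale, in ELS against control Itgam 0.028, in ELS-HFD against control Itgam 0.018, in the interaction Aif1 0.085 and in ELS averaged Cd74 -0.090. With a replicate block these were, on the log2 scale, in ELS against control Itgam 0.034, in ELS-HFD against ELS Csf1r 0.0032 and in ELS averaged Cd74 -0.44. Leaving out 1 library at a time gave the following ranges for the results that changed sign: in HFD against control Aif1 -0.10 to 0.55, Csf1r -0.019 to 0.18 and Itgam -0.32 to 0.068, in ELS against control Aif1 -0.18 to 0.011, Csf1r -0.14 to 0.019, Cx3cr1 -0.036 to 0.12 and Itgam -0.21 to 0.11, in ELS-HFD against control Itgam -0.20 to 0.053 and Cd74 -0.93 to 0.13, in ELS-HFD against ELS Csf1r -0.11 to 0.043 and Itgam -0.17 to 0.14, in ELS-HFD against HFD Aif1 -0.33 to 0.34, C1qa -0.61 to 0.069 and Itgam -0.12 to 0.25, in the interaction Aif1 -0.25 to 0.41, Csf1r -0.21 to 0.026, C1qa -0.48 to 0.19 and Itgam -0.11 to 0.32, in ELS averaged Aif1 -0.21 to 0.13, Itgam -0.061 to 0.12 and Cd74 -0.36 to 0.50 and in HFD averaged Csf1r -0.0061 to 0.084, Itgam -0.19 to 0.013 and Cd74 -0.67 to 0.24. The block called 0 IDs in all 8 comparisons. Replicate numbers did not pair the libraries: same-numbered libraries of 2 groups had a median correlation of deviations of -0.049 over 27 pairs, against 0.0042 over 108 other pairs.

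Of the 15 correlations, 3 passed by Pearson's r on all libraries, 6 as deviations from the group means and 0 without the 3 libraries. By Spearman's rho 2 passed in each of these, but not the same 2. They were Aif1 with Cx3cr1 and with C1qa on all libraries, and C1qa with Aif1 and with Csf1r as deviations. Without the 3 they were Csf1r with Cx3cr1 and with Itgam. On column-sum CPM the 3 pairs of all libraries passed by r, as did Cx3cr1 with Itgam (permutation, adjusted p = 0.047). By rho only Cx3cr1 with C1qa passed there (permutation, adjusted p = 0.02715), and Aif1 missed with C1qa (0.0809) and with Cx3cr1 (0.0844). Csf1r with Cx3cr1 was -0.03 on all libraries, 0.59 without the 3 and 0.14 on column-sum CPM. Without the 3, C1qa with Itgam was 0.27 and C1qa with Cd74 was -0.12. Itgam and Cd74 had as few as 38 and 26 counts in a library, which limits their precision.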
